A study of Mus musculus with 4 samples.

Results

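Type I interferon response genes were followed across 4 microarrays of mouse bone marrow cells. The members were chosen by name: 37 genes covering the interferon beta gene, both chains of its receptor, the transcription factors of the pathway, sensors of viral RNA and DNA, and genes that interferon induces. The interferon-inducible GTPases of the GBP and IRG families were not included. Probes carried a RefSeq accession, and 35 of the 37 genes were matched through it to 53 of the 56605 probes. Mx1 and Mx2, which restrict influenza and related viruses, had no matched probe and are named only. The series as a whole had 22903 named genes. Of the 35 matched members, 34 were well above background on all 4 arrays, which is a mark set by the scanner software for a spot clearly brighter than its surroundings, and Ifnb1 was on none.

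Each of 4 groups had 1 array: wild-type macrophages, wild-type osteoclasts, and both cell types from LysM-St18flox mice. To make macrophages, marrow was cultured with 25 ng/ml of M-CSF, on which macrophages depend, over 4 days. To make osteoclasts, which resorb bone, RANKL at 50 ng/ml was then added with the same dose of M-CSF over 3 more days, so RANKL and time in culture changed together. By convention LysM-St18flox denotes a loxP-flanked St18 gene with Cre recombinase made from the lysozyme M locus, which is active in myeloid cells. St18 is a zinc finger transcription factor gene. The sources used here do not give the strain, age or number of mice, or whether the wild-type mice carried Cre or the floxed allele. Osteoclasts were compared with macrophages within a genotype, and the genotypes with each other within a cell type.

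Type I interferons bind a receptor of the chains IFNAR1 and IFNAR2, whose kinases activate STAT2. With IRF9 it is part of the complex ISGF3, which binds the interferon-stimulated response element (ISRE) in the promoters of antiviral genes. In bone, interferon beta is known to restrain osteoclast formation.

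The promoter windows of the members were searched for the ISRE letters, which 12 of the 28 members with a window held. RefSeq windows of build GRCm38.p6, from 250 bases before to 50 bases after each start, were at hand for 28 of the 37 members. The core letters, GAAA, any 2 bases and GAAA, were searched on both strands. They were present in 13 of the 30 windows of induced members (43.3%) and in 1131 of all 32851 windows of the same length (3.44%). The induced members with a match were Bst2, Ddx58, Eif2ak2, Ifih1, Ifit1, Ifit3, Isg15, Oas1a, Oas3, Rsad2, Stat2 and Trim30a. Below are stretches before the start of 6 members whose values are described later, read 5′ to 3′ on the strand of the gene, with every base of a match in capitals. Matches can overlap, and on the opposite strand the letters read TTTC, 2 bases and TTTC.
Isg15: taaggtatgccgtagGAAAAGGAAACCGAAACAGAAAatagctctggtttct
Ifit1: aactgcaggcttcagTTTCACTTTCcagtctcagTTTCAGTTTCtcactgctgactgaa
Ifit3: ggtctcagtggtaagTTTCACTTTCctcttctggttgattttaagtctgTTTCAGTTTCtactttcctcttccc
Rsad2: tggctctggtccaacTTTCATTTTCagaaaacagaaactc
Oas1a: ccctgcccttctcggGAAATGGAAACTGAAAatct
Oas3: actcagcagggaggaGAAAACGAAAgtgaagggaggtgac

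The Isg15 stretch lies at chr4:156200860-156200911 on the minus strand and holds 3 overlapping matches. That of Ifit1 is chr19:34640770-34640828 and that of Ifit3 chr19:34583358-34583431, both on the plus strand with 2 separate matches. The other stretches are on the minus strand: Rsad2 at chr12:26456548-26456587 with 1 match, Oas1a at chr5:120907526-120907560 with 2 overlapping matches, and Oas3 at chr5:120777710-120777749 with 1. Another motif, the gamma-activated sequence letters TTCNNNGAA, read the same on both strands. It was in 6 of the 30 windows of induced members (20.0%) and in 8.30% of all windows, and in the Bst2 window a match of it shared bases with an ISRE match. A match describes letters only and is not a measured binding site.

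**Figure D1:**
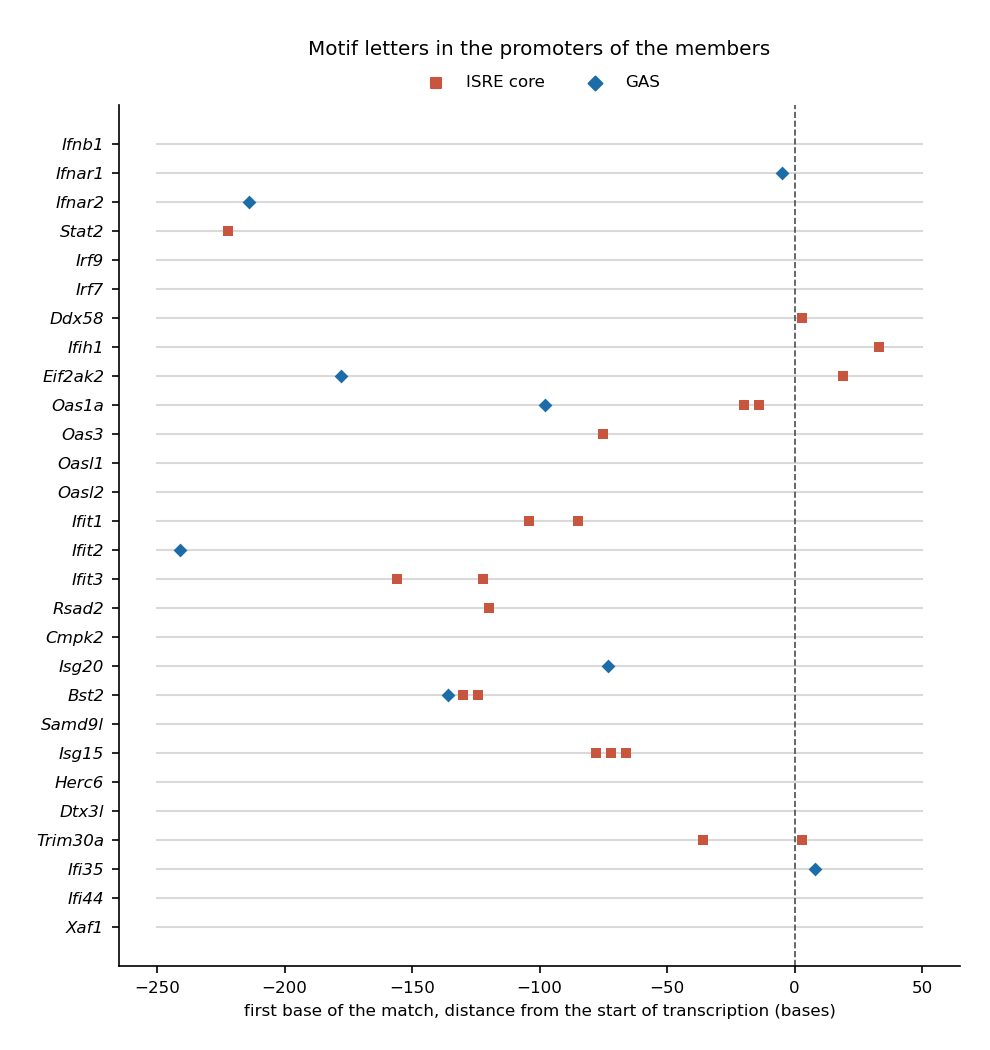
Positions of the ISRE core letters (squares) and the gamma-activated sequence letters (diamonds) in the promoter windows of 28 members. The x axis is the distance in bases of the leftmost base of a match from the start of transcription, and several windows of a gene share its line. The matches of Isg15, Ifit1, Ifit3, Rsad2 and Oas3 lie before the start, while 16 of the 28 genes have no ISRE match in the window.

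Levels are log2 of the spot signal relative to the 75th percentile of the array, and a difference of 1 is 2-fold. With 1 array a group there is no test and no replicate check, and a difference of at least 2-fold was used as a criterion of size. Spots of a repeated probe gave an SD of 0.045 to 0.056 for a difference between arrays, which covers the measurement and not cultures or mice. Different probes of a gene varied more, with a median SD of 0.11 and 0.13 for the differences between cell types and 0.22 for both differences between genotypes. Between 59.0% and 63.2% of spots were well above background and none was saturated. St18 itself, with its brighter probe, was at 0.29 in wild-type and -1.52 in LysM-St18flox macrophages, and at 1.55 and 1.12 in osteoclasts. Another, dim St18 probe passed the background mark on the array of LysM-St18flox osteoclasts alone (-4.60). The sources used here do not place the probes relative to the floxed part, so they do not check the deletion. Osteoclast markers were as labelled: all 10, Acp5 and Ctsk among them, were at least 2-fold higher in osteoclasts of both genotypes. Macrophage markers were detected on every array, 8 of 8.

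Interferon genes were lower in osteoclasts than in macrophages in both genotypes. In the wild type, 22 of the 34 measured members were at least 2-fold lower in osteoclasts and none was 2-fold higher, where 7.32% of all 14734 genes measured were lower and 5.70% higher. In LysM-St18flox, 25 of 34 were lower and none higher, with 12.2% of 15575 genes lower and 10.9% higher. The median difference of the members was -1.42 and -1.48, and that of all genes 0.00 and -0.02. For 33 of the 34, both macrophage arrays lay above both osteoclast arrays, an order shown by 29.1% of genes that passed the background mark on every array. Lower by at least 2-fold in both genotypes were 21 members (61.8%), against 6.12% of such genes. These members were not chosen on these values, but that interferon genes are lower in these osteoclasts was known when they were chosen. In cultures of mixed cells, fewer cells of a type and less RNA per cell cannot be told apart.

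**Figure D2:**
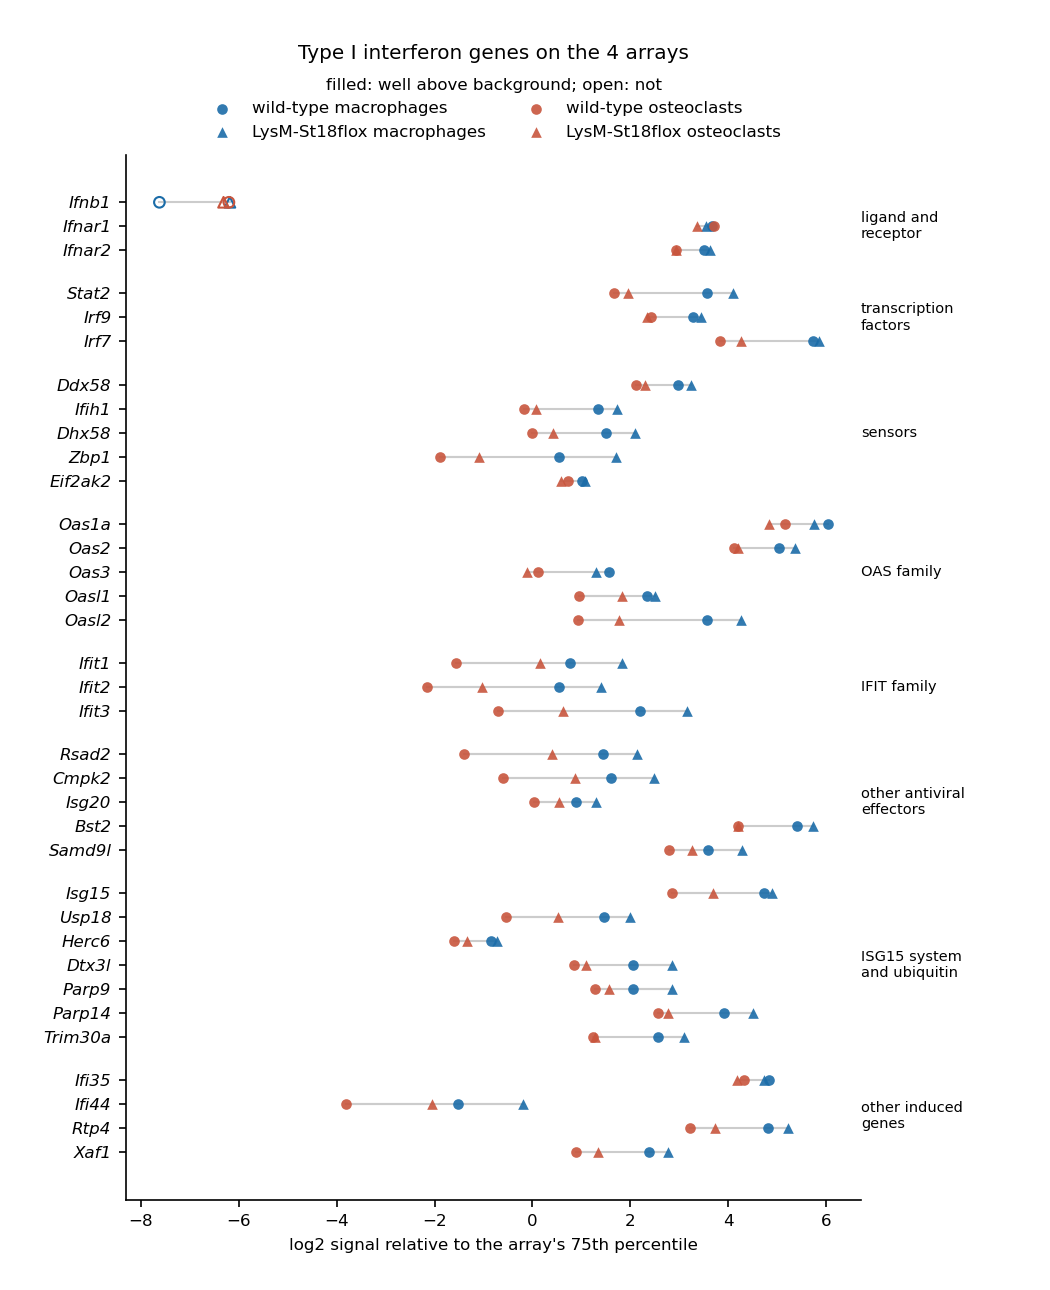
Level of each of the 35 matched members on the 4 arrays, as log2 signal relative to the 75th percentile of the array (x axis), with members grouped by role. Blue marks are macrophages, red marks osteoclasts, circles wild-type and triangles LysM-St18flox, each mark being 1 array. For 33 of 34 members both blue marks lie to the right of both red marks, and Ifnb1, in open marks, was not well above background.

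The receptor genes differed by less than 2-fold. Ifnb1, which encodes interferon beta, was not well above background on any array. Ifnar1, the receptor chain that holds TYK2, was at 3.66 in wild-type and 3.55 in LysM-St18flox macrophages, and at 3.70 and 3.37 in osteoclasts. Its 4 arrays span 0.33, the smallest range of the members above background, and the cell types overlap. Its other probes gave -0.24 and -0.52, with both macrophage arrays above both osteoclast arrays, and -0.05 and -0.47. Ifnar2, which binds STAT2 and JAK1, was at 3.51 and 3.63 in macrophages and at 2.93 and 2.94 in osteoclasts, with differences of -0.59 and -0.69. A dimmer Ifnar2 probe gave -0.76 (wild type) and -1.55 (LysM-St18flox).

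The transcription factors were lower in osteoclasts. Stat2, a subunit of ISGF3, was at 3.57 in wild-type and 4.10 in LysM-St18flox macrophages, and at 1.66 and 1.96 in osteoclasts. Both osteoclast arrays were far below both macrophage arrays, by 3.76-fold (wild type) and 4.41-fold (LysM-St18flox). A dimmer Stat2 probe gave smaller differences, -0.86 in wild-type cells, short of 2-fold, and -1.56 in LysM-St18flox cells. Irf9, the DNA-binding subunit of the same complex, was at 3.29 and 3.45 in macrophages and at 2.42 and 2.35 in osteoclasts. The differences were -0.87 and -1.10, so Irf9 passed 2-fold in LysM-St18flox alone, and the difference between genotypes was not tested. Irf7, which amplifies interferon production, was at 5.73 and 5.85 in macrophages and at 3.84 and 4.26 in osteoclasts, 3.71-fold and 3.00-fold lower. Its other probe gave -1.90 and -1.77.

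Sensors of nucleic acid differed in size among themselves. Zbp1, a sensor of Z-form nucleic acid that triggers cell death, was at 0.54 in wild-type and 1.71 in LysM-St18flox macrophages, and at -1.89 and -1.09 in osteoclasts. Those differences of -2.42 and -2.81 were the largest among the sensors, and a further Zbp1 probe gave -2.86 and -3.12. Ifih1 (MDA5, a sensor of long double-stranded RNA) and Dhx58 (its relative LGP2) had the same pair of differences at 2 decimals, -1.50 and -1.66. Ddx58 (RIG-I, a sensor of RNA ends) was at -0.86 and -0.94, short of 2-fold. Its 3 other probes gave -0.61 to -0.81 in the wild type and -1.20 to -1.37 in LysM-St18flox, so in LysM-St18flox the size rule was met by those probes and missed by the brightest. Eif2ak2 (PKR, a kinase that stops translation) was at 1.02 and 1.07 in macrophages and at 0.73 and 0.59 in osteoclasts, the smallest differences of the induced members (-0.28 and -0.48).

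All 5 members of the OAS family, enzymes and relatives that respond to double-stranded RNA, were lower in osteoclasts. In each genotype 3 passed 2-fold, beside 7.32% (wild type) and 12.2% (LysM-St18flox) of all genes lower. They were Oasl2, Oas3 and Oasl1 in the wild type, and Oasl2, Oas3 and Oas2 in LysM-St18flox. Oasl2 was at 3.56 in wild-type and 4.27 in LysM-St18flox macrophages, and at 0.93 and 1.76 in osteoclasts. That is 6.2-fold and 5.72-fold lower, the largest difference of the family in both genotypes. Oas3 was at -1.45 and -1.42, Oas1a at -0.85 and -0.92 and Oas2 at -0.91 and -1.18. A dim Oas2 probe gave -1.13 and -1.11, past 2-fold in both genotypes. Oasl1, which limits translation of Irf7, was at 2.35 and 2.50 in macrophages and at 0.96 and 1.83 in osteoclasts. Its differences of -1.40 and -0.68 lay on either side of the size rule, and its other probe gave -1.36 and -0.69. Oas1a has near-identical copies, and the files do not give probe sequences, so its signal may include them.

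The 3 IFIT genes, whose proteins bind foreign RNA, had large differences in both genotypes. Ifit3 was at 2.19 in wild-type and 3.15 in LysM-St18flox macrophages, and at -0.71 and 0.62 in osteoclasts. Its 7.46-fold lower level in wild-type osteoclasts was the largest difference of any member in that comparison, and it ranked 66 of 14734 genes from the lowest. Ifit2 was at 0.54 and 1.41 in macrophages and at -2.16 and -1.03 in osteoclasts, 6.47-fold and 5.40-fold lower. Ifit1 was at 0.76 and 1.82 in macrophages and at -1.56 and 0.15 in osteoclasts, 5.00-fold and 3.17-fold lower. In all 3 genes the highest array was that of LysM-St18flox macrophages and the lowest that of wild-type osteoclasts. Ifit3 has a near copy, Ifit3b, whose probe gave -2.46 and -1.97.

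Among the other antiviral genes, Rsad2 and Cmpk2 stood next to each other in the genome and in their values. Rsad2 (viperin, which makes a chain-terminating nucleotide) was at 1.44 in wild-type and 2.14 in LysM-St18flox macrophages, and at -1.40 and 0.41 in osteoclasts, 7.16-fold and 3.30-fold lower. Cmpk2, a mitochondrial nucleotide kinase and its direct neighbour, was at 1.61 and 2.48 in macrophages and at -0.61 and 0.86 in osteoclasts, 4.66-fold and 3.09-fold lower. A dimmer Rsad2 probe gave -1.93 and -1.86. Bst2 (tetherin, which holds budding virus at the cell surface) was 2.32-fold and 2.93-fold lower in osteoclasts. Isg20, an exonuclease, was at -0.87 and -0.74, and Samd9l, a growth-restricting antiviral protein, at -0.79 and -1.04.

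Of the 7 genes of the ISG15 system and related ubiquitin and ADP-ribosylation enzymes, 5 were 2-fold lower for wild type and 6 for LysM-St18flox. That compares with 7.32% and 12.2% of all genes. Isg15, the ubiquitin-like protein that is attached to other proteins, was at 4.73 in wild-type and 4.90 in LysM-St18flox macrophages, and at 2.86 and 3.68 in osteoclasts. Usp18, which removes ISG15 and blocks the receptor, was at 1.47 and 1.99 in macrophages and at -0.53 and 0.53 in osteoclasts. Both were lower in osteoclasts, Isg15 by 3.64-fold and 2.33-fold and Usp18 by 3.99-fold and 2.74-fold. Herc6, a ligase of ISG15, was at -0.77 and -0.62. Dtx3l and Parp9, adjacent genes whose proteins form a complex, were at -1.22 and -1.76 and at -0.79 and -1.29. Parp14, another ADP-ribosyltransferase, was at -1.35 and -1.72 and Trim30a at -1.32 and -1.80. For Dtx3l, Parp9, Parp14 and Trim30a the LysM-St18flox difference was the larger, whereas for Isg15, Usp18 and Herc6 it was the smaller.

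The remaining induced genes behaved likewise except 1. Ifi44 was at -1.52 in wild-type and -0.20 in LysM-St18flox macrophages, and at -3.80 and -2.06 in osteoclasts, 4.85-fold and 3.63-fold lower. Rtp4, a chaperone of receptors induced by interferon, was at -1.60 and -1.50, and Xaf1, which counters the apoptosis inhibitor XIAP, at -1.49 and -1.43. Ifi35 was at -0.50 and -0.57 and its other probe at -0.51 and -0.47.

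**Figure D3:**
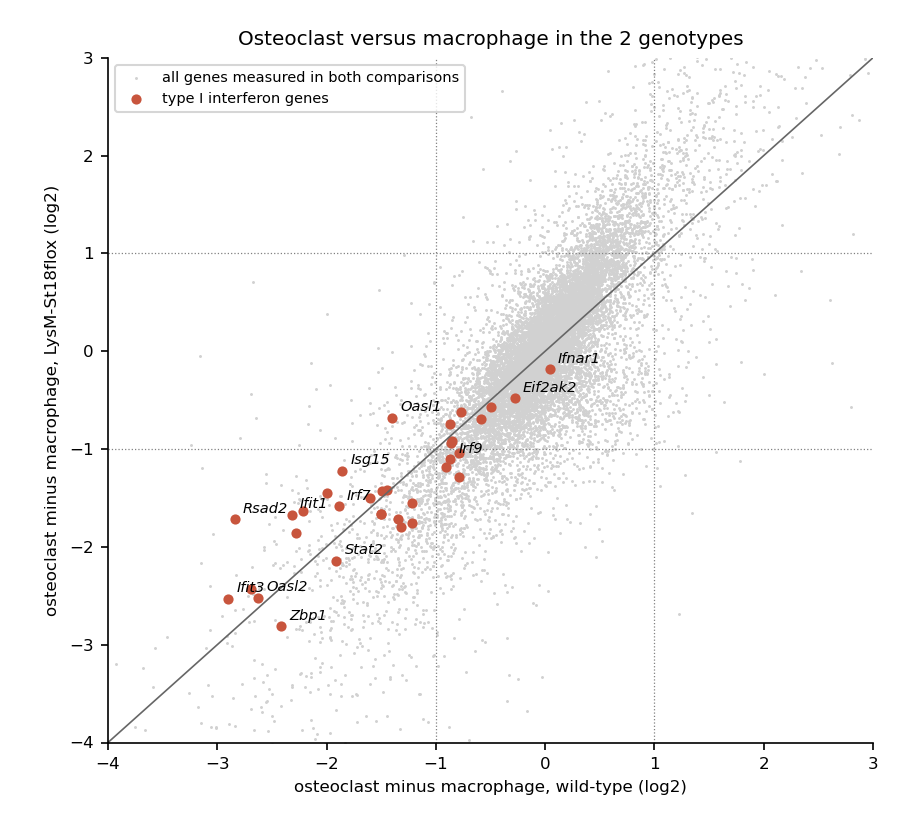
Osteoclast minus macrophage difference (log2) for wild type (x axis) and LysM-St18flox (y axis) for all genes measured in both (grey) and for the 34 measured members (red). The dotted lines mark 2-fold and the diagonal equal differences. The members run from Ifnar1 near 0 to Ifit2, Ifit3, Oasl2 and Zbp1 below -2.4, and lie on both sides of the diagonal.

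Across the 34 members the differences of the 2 genotypes, which share no array, had a Pearson correlation of 0.85, while over the 13671 genes that passed the background mark on every array it was 0.86. Genes are not independent replicates, so both describe these arrays. The LysM-St18flox difference was the more negative for 18 of the 34 members, and for 45.8% of such genes. The difference of differences (LysM-St18flox minus wild-type) had a median of -0.07 over the members and 0.04 over all such genes. Centring on the array median in place of the 75th percentile shifted all genes alike, to 0.17 for the members and 0.28 for all genes, so the members' median lay 0.11 lower than that of all genes under both scalings. Rsad2 was the only member past 2-fold, at 1.12, where 3.20% of genes were past 2-fold upward and 4.70% downward. The dimmer Rsad2 probe did not show it, as its differences of -1.93 and -1.86 were close to each other, and over the alternative settings the Rsad2 value ran from 0.59 to 1.35. Next were Oasl1 (0.72), Ifit1 (0.65), Isg15 (0.64), Cmpk2 (0.59) and Usp18 (0.54), with Dtx3l (-0.54), Parp9 (-0.50) and Trim30a (-0.49) at the other end.

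Most interferon genes were higher in cells of LysM-St18flox mice, with a median difference smaller than that between cell types. This did not hold for every member. In osteoclasts Rsad2 (1.81), Ifit1 (1.71) and Oasl1 (0.87) exceeded in size their difference between LysM-St18flox cell types (-1.72, -1.67 and -0.68). In macrophages 30 of the 34 members were above 0, as were 48.2% of all genes, and the medians were 0.41 and -0.02. At least 2-fold higher were 3 members, Ifi44 (2.49-fold), Zbp1 (2.26-fold) and Ifit1 (2.09-fold), and none was 2-fold lower. Of all 15161 genes, 3.30% were 2-fold higher and 2.98% lower. In osteoclasts 28 members were above 0, as were 49.5% of all genes, and the medians were 0.37 and 0.00. At least 2-fold higher were 7 members and none lower, with 3.80% of 14614 genes higher and 3.94% lower. They were Rsad2 (3.52-fold), Ifi44 (3.33-fold), Ifit1 (3.28-fold), Cmpk2 (2.76-fold), Ifit3 (2.50-fold), Ifit2 (2.19-fold) and Usp18 (2.09-fold). Centred on the array median, all genes shifted by 0.24 in this comparison and 11 members were past 2-fold, beside 6.73% of genes, while the members lay 0.38 above all genes in place of 0.37. With another background correction (normexp) 4 members were, beside 2.20% of genes.

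**Figure D4:**
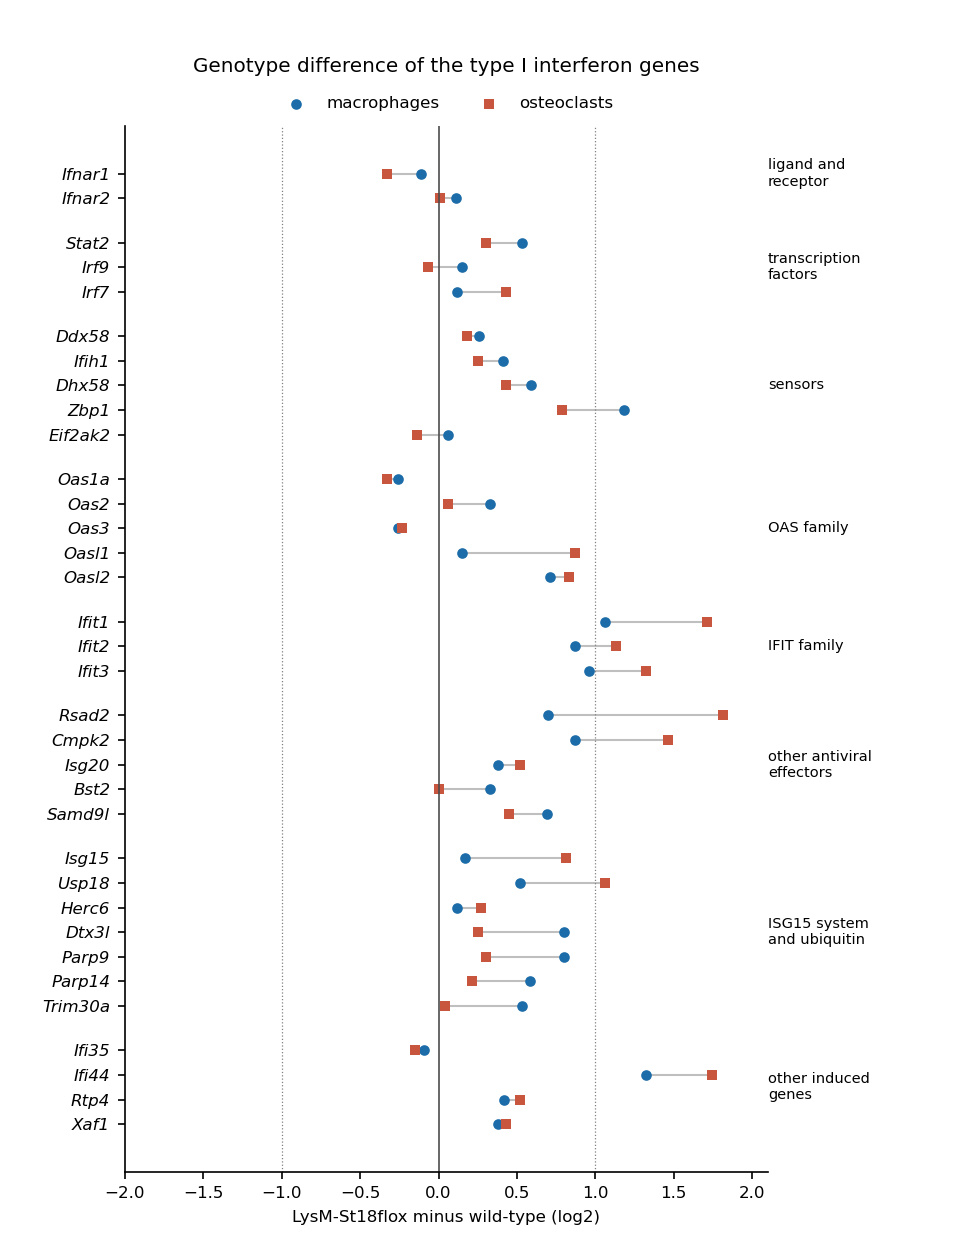
Difference LysM-St18flox minus wild-type (log2, x axis) for the 34 measured members in macrophages (circles) and osteoclasts (squares), with members grouped by role and dotted lines at 2-fold. In macrophages 30 members and in osteoclasts 28 lie above 0, and the IFIT genes, Rsad2, Cmpk2 and Ifi44 lie farthest to the right in osteoclasts.

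In both cell types LysM-St18flox was above wild-type for 28 of the 34 members, where 30.9% of genes that passed the background mark on every array showed this. The count ran from 25 to 30 over the alternative settings. The highest of the 4 arrays was that of LysM-St18flox macrophages for 30 members, and the lowest that of wild-type osteoclasts for 28. Members below wild-type in both cell types were Ifnar1 (-0.11 in macrophages and -0.33 in osteoclasts), Oas1a (-0.26 and -0.33), Oas3 (-0.26 and -0.23) and Ifi35 (-0.09 and -0.15). Of these, Ifi35, Oas3 and Ifnar1 each turned above 0 under at least 1 alternative setting. The genotype difference of the 2 cell types, which share no array, had a Pearson correlation of 0.75 across the 34 members and 0.37 across all 13671 genes. Cultures of both cell types in a genotype may come from the same mice, whose number is not given. Genotype therefore cannot be told apart from mouse or culture here.

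The roles differed in how large the genotype difference was. For the IFIT genes the median was 0.96 in macrophages and 1.32 in osteoclasts. All 3 were at least 2-fold higher in osteoclasts, as were 3.80% of all genes. Ifi44 was at 1.32 and 1.74. The OAS family had medians of 0.15 and 0.06, although its member Oasl2 was at 0.71 and 0.83 and Oasl1 at 0.15 and 0.87. Transcription factors were at 0.53 and 0.30 for Stat2, 0.15 and -0.07 for Irf9, and 0.12 and 0.43 for Irf7. The other Irf7 probe gave -0.03 and 0.10. A dimmer Stat2 probe was lower in both cell types of LysM-St18flox, at -0.43 (macrophages) and -1.13 (osteoclasts). The 3 other Ddx58 probes (-0.27 to -0.38) also opposed the brightest (0.18) in osteoclasts, and a dim Oas2 probe gave -0.27 and -0.25 where the brighter gave 0.33 and 0.06. For Rsad2 the dimmer probe gave 0.25 and 0.32 where the brighter gave 0.70 and 1.81. In osteoclasts the dimmer probes of Zbp1 (1.18) and Oasl1 (1.07) passed 2-fold, where the brighter (0.79 and 0.87) did not. In macrophages a dim Xaf1 probe (1.20) passed it, where the brighter (0.38) did not.

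Neighbours in the genome had like genotype differences in some cases. Dtx3l and Parp9, with no gene between them, were at 0.80 and 0.80 in macrophages and at 0.25 and 0.30 in osteoclasts, and Parp14, with 2 genes between, at 0.58 and 0.21. Cmpk2 was at 0.87 and 1.46 beside Rsad2 at 0.70 and 1.81, and Ifit2 at 0.87 and 1.13 beside Ifit3 at 0.96 and 1.32. Against that, the adjacent Oas2 and Oas3 were at 0.33 and -0.26 in macrophages. Both readings depend on the probe. The dim Oas2 probe, at -0.27 in macrophages, was like Oas3, and the dimmer Rsad2 probe (0.25 and 0.32) was unlike Cmpk2.

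Other genes of the pathway came from lists that did not use these members. Of 12 genes of receptor and signalling, 1 was 2-fold higher and none lower in wild-type osteoclasts, and none higher and 2 lower in LysM-St18flox osteoclasts. With 5.70% of all genes higher in the wild type and 12.2% lower in LysM-St18flox, these counts are near those of all genes. The kinase genes Jak1 (-0.25 and -0.60) and Tyk2 (-0.13 and -0.36) differed by less than 2-fold between cell types. Socs1, an inhibitor of the JAK kinases, was at 1.03 and 0.79. Of 23 measured genes of sensing and induction, 5 were 2-fold lower and 1 higher in wild-type osteoclasts, and 9 lower and 1 higher in LysM-St18flox, beside 7.32% and 12.2% of all genes lower. Irf8, a factor of macrophage identity, was 5.85-fold and 12.0-fold lower, and Irf3, which switches on interferon beta, was at -0.05 and 0.01. Between genotypes, the sensing and induction genes had a median of 0.13 in macrophages, with 15 above 0 and 8 below. In osteoclasts it was -0.20, with 7 above 0 and 15 below, unlike the members (0.37). The medians of the receptor and signalling genes were 0.29 (8 above 0 and 4 below) and 0.05 (7 and 5). Of all genes 48.2% and 49.5% were above 0. The interferon alpha genes Ifna1, Ifna2, Ifna5 and Ifnab were well above background but dim on all arrays, with levels from -4.73 to -2.92, and their copies cannot be told apart here. Ifna11 was well above background in macrophages alone (-4.88 and -4.47), with bounds of -0.01 and -1.03 for osteoclasts against macrophages. Ifna4 was not well above background on any array.

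A list of further interferon-induced genes had 85 members with a probe. Of 81 measured in the wild type 31 were 2-fold lower and 2 higher in osteoclasts, with a median of -0.75, and of 82 in LysM-St18flox 38 were lower and 2 higher, with a median of -0.83. Over all genes 7.32% and 12.2% were lower. At least 2-fold lower in both genotypes were 29 of 81, and 6.12% of genes that passed the background mark on every array. Between genotypes, 9 of 82 were higher and none lower in LysM-St18flox macrophages (median 0.41), and 6 of 79 higher and 1 lower in osteoclasts (median 0.19). Of all genes 3.30% were higher in macrophages and 3.80% in osteoclasts. The largest differences from macrophages over the pathway lists, besides Irf8, were in Fcgr1, the high-affinity IgG receptor, which is also a macrophage marker (19.7-fold and 21.0-fold lower), in Ifit3b and Phf11b in the wild type (5.51-fold and 5.26-fold lower), and in Tmem140 and Gm4951 in LysM-St18flox (20.0-fold and 19.1-fold lower). Between genotypes they were in Gm4951 (4.03-fold higher), Ifitm6 (3.57-fold), Ccrl2 (2.76-fold) and Cd274, the ligand PD-L1 (2.55-fold), in macrophages. In osteoclasts they were in Ifit1bl1 (3.44-fold higher), Shfl (2.98-fold), the chemokine gene Cxcl10 (2.17-fold) and Ifnk, which was not well above background in LysM-St18flox and at least 2.68-fold lower.

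**Figure D5:**
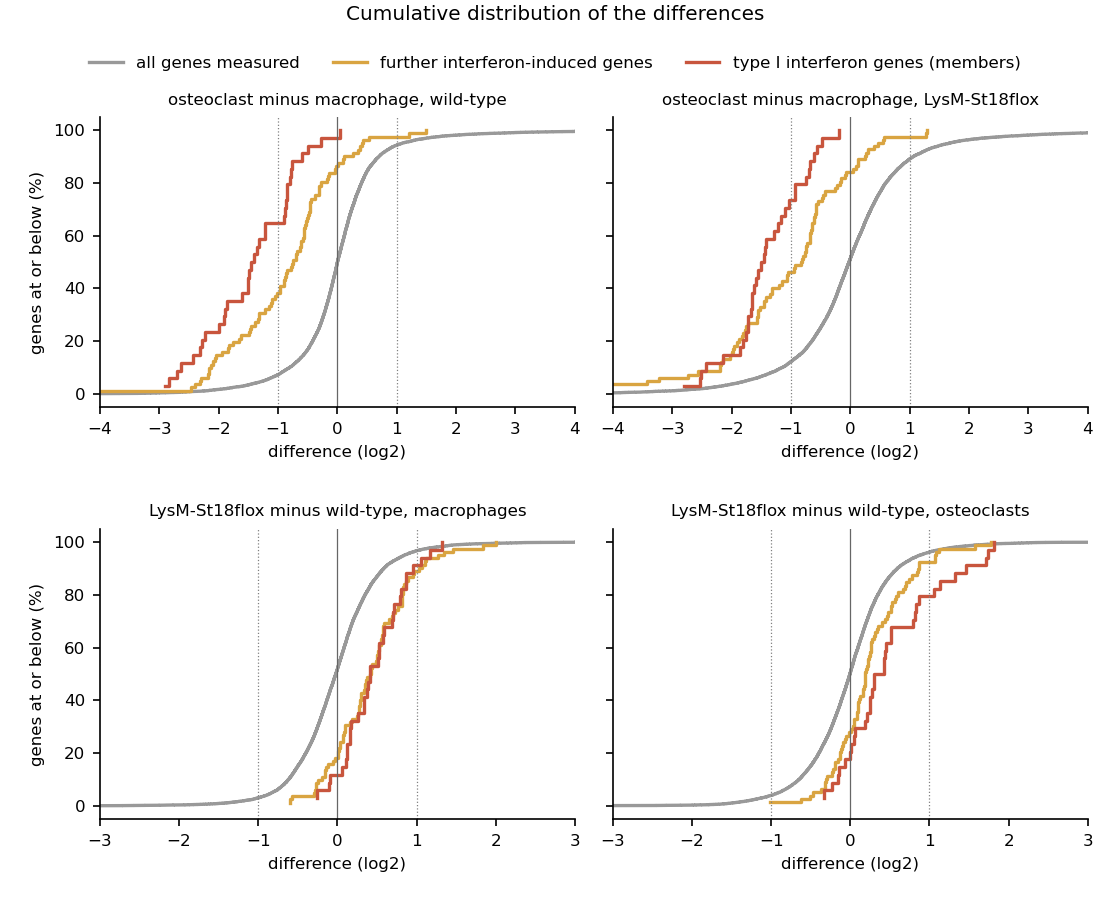
Cumulative share of genes (y axis, %) at or below a difference (x axis, log2) in the 4 comparisons, for all genes measured (grey), the further interferon-induced genes (yellow) and the members (red), with dotted lines at 2-fold. Members lie left of all genes in osteoclast minus macrophage (medians -1.42 and -1.48 against 0.00 and -0.02) and right of them in LysM-St18flox minus wild-type (0.41 and 0.37 against -0.02 and 0.00).

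Marker genes moved with some of these differences. Of the 10 osteoclast markers 8 were at least 2-fold higher in osteoclasts of LysM-St18flox mice, beside 3.80% of all genes. The summed level of these markers, in multiples of the 75th percentile, was 987 against 767, with 11.1 and 12.9 in the macrophages. In osteoclasts 3 of the 8 macrophage markers were 2-fold lower in the wild type (median -0.95) and 5 in LysM-St18flox (median -1.41). Between these cell types 7.32% and 12.2% of all genes were lower, and 5.70% and 10.9% higher. Between genotypes 2 macrophage markers, Mertk (1.66) and Mrc1 (1.41), were 2-fold higher in LysM-St18flox macrophages, beside 3.30% of all genes. In those macrophages the 8 markers had a median of 0.19, and in osteoclasts none was 2-fold higher. Their summed level was 803 in wild-type and 784 in LysM-St18flox macrophages, and 477 and 520 in osteoclasts. Of 9 matched neutrophil markers 8 or 9 were well above background, with summed levels of 33.1 and 40.4 in macrophages and 14.3 and 9.86 in osteoclasts. Mmp8 was the brightest part of that sum in macrophages, with differences of -2.08 and -3.46, and over the 9 markers 1 was 2-fold lower and 1 higher in the wild type (median -0.34) and 5 were lower in LysM-St18flox (median -1.16). Plasmacytoid dendritic cells, which make much interferon, were read by 8 markers, 5 of them above background on both wild-type arrays and 7 on both LysM-St18flox arrays, with sums of 185 and 130 in macrophages and 160 and 121 in osteoclasts. Most of that sum was Siglech, which was lower in LysM-St18flox (-0.70 in macrophages and -0.51 in osteoclasts), and Ly6d was above background on no array. By count, 5 of the 7 measured markers were above 0 in LysM-St18flox macrophages (median 0.17) and 2 below, with 2 at least 2-fold higher. In osteoclasts 3 of 6 were above 0 and 3 below (median 0.22), none past 2-fold. B cell markers summed to 1.32 and 1.68 in macrophages and 0.469 and 0.268 in osteoclasts, with Cd79a and Ebf1 among those above background on no array. T and NK cell markers were between 2.26 and 3.57 on the 4 arrays, erythroid markers between 0.110 and 0.567 and stromal markers between 0.150 and 0.238. The part of these cells in the differences of the interferon genes was not tested.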

How the data were processed

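RNA of 4 mouse cultures, 1 per group, was labelled with Cy3 and hybridised to 1-colour Agilent arrays, all on 1 slide. Groups follow the labelled cell type and genotype. Per the file headers, the deposited spot values are intensities that Agilent Feature Extraction 11.0.1.1 background-subtracted within an array and did not scale between arrays, beside median intensities of spot and background and flags. The authors also deposited a table of normalized log2 values of 30909 probes, made by steps not given in the sources used here. Its sorted columns differ by at most 0.00065, as after quantile normalization, its columns all have a median of 9.39 and it holds levels, not ratios.

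Values were log2 of the processed intensity, averaged over the spots of a probe without 80 to 126 outlying spots per array, relative to the array's 75th percentile. RefSeq accessions named the probes (32994 named, 23611 not; names from the table of GRCm38.p6, while the file headers name another build), and a gene was read by its probe with the highest mean. A gene entered a comparison when well above background on at least 1 of its 2 arrays. Where it was on only 1, the dim side was set to the lowest signal well above background, or its own if higher, and the difference is a bound. No test or p-value was computed. Alternatives were normexp (limma 3.58.1, offset 50, on the median intensities, as the files hold no mean intensity), quantile scaling, the array median, a percentile over detected probes, the authors' values, other filters, the median over probes and a 1.5-fold rule. All members were described, and of the pathway lists the 4 largest differences per comparison with Jak1, Tyk2, Irf3 and Socs1; a further gene of that rule is not reported here. Second probes were named where they differed in direction past 2-fold by rule, and others after their values were seen. Members and lists were chosen with earlier results of these data known. The number of arrays limits the precision.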

Additional observations from a re-analysis of the deposited data

Results flagged for a closer look

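For 3 members the 2 differences of a kind had opposite signs, and the difference between them was not tested. Irf9 was at 0.15 between genotypes in macrophages and -0.07 in osteoclasts, and Eif2ak2 at 0.06 and -0.14. Ifnar1 was at 0.04 between cell types in wild-type cells and -0.18 in LysM-St18flox cells. The values of Irf9 and Eif2ak2 are smaller than the median spread of 0.22 between probes of a gene. Their sign in osteoclasts changed under 2 alternative settings for Irf9 and 1 for Eif2ak2. The other Irf9 probe gave 0.41 and 0.09, above 0 in both cell types. The sign of Ifnar1 in the wild type changed under 5 alternative settings.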

How the results depend on the processing

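No paired analysis was possible because each group had 1 array. The 112 values of the members as a group under 9 alternatives gave 103 that moved by less than the spread between probes of a gene, or by less than 1.5 times for counts. With normexp the median in wild-type osteoclasts against macrophages was -1.30, and 4 members were 2-fold higher in LysM-St18flox osteoclasts. With array medians the medians were -1.31 for LysM-St18flox osteoclasts against macrophages and 0.61 for LysM-St18flox against wild-type osteoclasts, where 11 members were 2-fold higher, and 0.17 for the difference of differences, where all genes shifted alike to 0.28. Without the filter on dim probes 1 member, Ifnb1, was 2-fold higher in wild-type osteoclasts, with both arrays not well above background. At 1.5-fold, 12 members were higher in macrophages of LysM-St18flox mice and 11 in their osteoclasts, beside 10.1% and 10.4% of all genes. Of the 57 single differences of at least 2-fold, 54 stayed past it with normexp, 55 with array medians and all 57 under each of the other 6 settings. Beyond that shift of all genes, the cause was not tested. The lowest levels well above background were -5.56 to -4.89, which limits Ifnb1 and the dim interferon genes.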

Other observations

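Genes outside the members that hold the ISRE letters in their promoter window were also lower in osteoclasts in a larger share than genes without them. Genes of the pathway lists above, such as the further interferon-induced genes, were not left out of this set. In the wild type 67 of 447 such genes were at least 2-fold lower and 20 higher, and of 11266 measured genes without the letters, 6.70% were lower. In LysM-St18flox 101 of 472 (21.4%) were lower and 37 (7.84%) higher, against 11.4% lower and 10.8% higher for genes without the letters. Their medians were -0.09 (wild type) and -0.21 (LysM-St18flox), beside 0.01 and -0.01 for genes without the letters. Between genotypes, 26 of 464 were higher and 11 lower in LysM-St18flox macrophages, and 12 and 18 of 444 in osteoclasts. Of genes without the letters 2.95% were higher and 2.90% lower in macrophages, and 3.56% and 3.74% in osteoclasts. No test was made of these differences. Within the induced members, 9 of 12 with the letters and 8 of 13 without them were 2-fold lower in wild-type osteoclasts, so the letters in this window did not separate the members.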
